A study of Homo sapiens with 6 samples.

Results

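The genes described here are 38 genes of glycolysis and the hypoxia response, taken by name from the 25528 gene symbols measured by RNA-seq in DU145/tet-XISTshRNA cells. The list was set by gene name, with no threshold on a measured value, but with earlier results of these data known. They fall by role into 6 genes for HIF subunits and oxygen sensing, 4 for glucose and lactate transport, 16 for glycolytic enzymes, 3 for control of glycolytic flux and 9 other hypoxia response genes. Of the 38 genes, 33 reached the level needed for a test, and 11595 genes were tested in all.

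Glycolysis splits glucose into pyruvate through a chain of cytosolic enzymes, and many carcinomas run it at a high rate in the presence of oxygen, with lactate as the end product. Much of the pathway can be switched on by the hypoxia-inducible factors (HIF), which pair an oxygen-labile alpha subunit (HIF1A or EPAS1) with the stable subunit ARNT. With oxygen present, the prolyl hydroxylases EGLN1 and EGLN3 mark the alpha subunit and VHL sends it to the proteasome, so that HIF is controlled largely at the level of protein, which RNA-seq does not measure.

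DU145 is an established prostate carcinoma line grown from a metastasis. The cells used here carried a tetracycline-inducible shRNA against the long noncoding RNA XIST. There were 3 vehicle samples, given 0.1% DMSO, and 3 DOX samples, given 500 ng/ml doxycycline for 7 days. All 6 samples carried the shRNA vector and had been selected with puromycin or geneticin, and cultures were grown in triplicate from 1 vector line. DOX-treated cells with a control shRNA were not analysed here, so that an action of doxycycline itself and one of the shRNA cannot be told apart. The question addressed by the comparison is how the transcriptome differed after induction of the XIST shRNA. XIST itself was listed at 0 in all 6 samples, so the silencing could not be checked in this table. The study reports silencing of XIST by the inducible shRNA from a separate measurement of XIST RNA.

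Levels are given as scaled TPM, that is, the deposited TPM (transcripts per gene relative to a fixed total in each sample) divided by 1 factor per sample taken from the genes above 0 in every sample. The scaling was needed because 5 abundant small RNAs (RN7SK, RPPH1, RN7SL1, RN7SL2 and RN7SL3) held 67.5% to 82.6% of all TPM. Reads on genes, recovered from the tables, ranged from 5453536 in vehicle replicate 3 to 64562332 in DOX replicate 1. All 6 epithelial markers were expressed (summed level 324 to 433 scaled TPM in vehicle and 467 to 630 in DOX, higher in each DOX sample, and its part in the results was not tested). Blood markers summed to at most 0.0151, endothelial markers to at most 0.0681 and fibroblast markers to at most 0.627 scaled TPM in any sample. In these bulk samples a change in the share of cells that express a gene and a change in RNA per cell cannot be told apart.

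The 38 genes spanned levels from 0 to 1306 scaled TPM, and glycolytic enzymes led them. GAPDH, which oxidizes glyceraldehyde-3-phosphate, had the highest mean level, followed by the pyruvate kinase gene PKM, the lactate dehydrogenase gene LDHA, the aldolase gene ALDOA and the enolase gene ENO1. HIF1A ranked 6 among the 38 genes. At the other end the neuronal aldolase gene ALDOC, the glucose transporter gene SLC2A3, the vasodilator peptide gene ADM, the gene of unclear function ANKRD37 and the carbonic anhydrase gene CA9 stayed below a mean of 1 scaled TPM over the 6 samples and were not tested. CA9, a common marker of hypoxic tumor cells, was listed at 0 in 5 of the 6 samples and had 2 reads in DOX replicate 1.

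**Figure D1:**
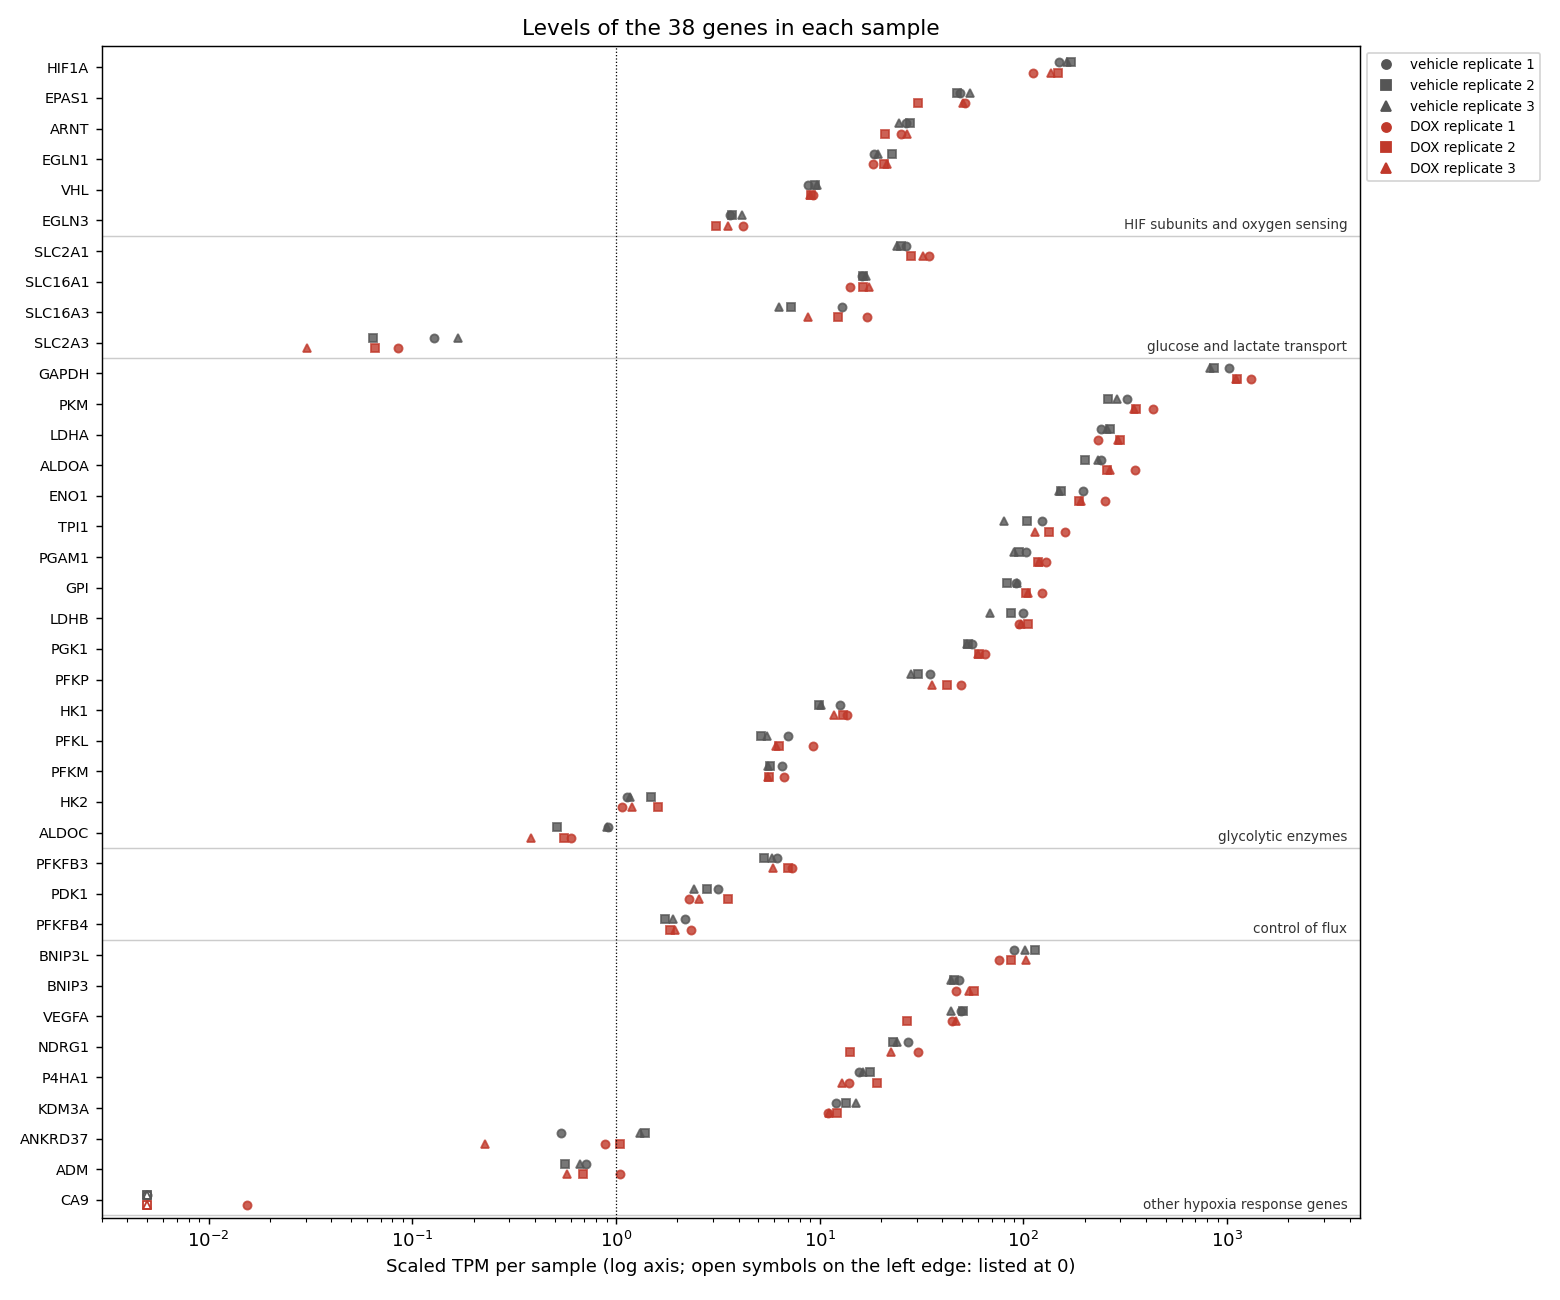
Scaled TPM (log axis) of the 38 genes, 1 symbol per sample, grouped by role and ordered by mean level. Gray symbols are the 3 vehicle and red symbols the 3 DOX samples, open symbols at the left edge are values listed at 0, and the dotted line is the minimum of 1. GAPDH lies between 821 and 1306 in all samples, while CA9 is at or near 0.

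No gene of the 38 passed the test for a difference between DOX and vehicle, but the glycolytic enzymes lay above 0 and most HIF and other hypoxia response genes below it. All 15 glycolytic enzymes tested had log2 fold changes above 0 (0.0069 to 0.43, median 0.30), while all 6 genes of HIF and oxygen sensing lay below 0 (median -0.095), as did 5 of the 6 other hypoxia response genes (median -0.20). These directions hold for scaled TPM. On the TPM scale as deposited the median of all genes was -0.35 instead of 0.017 and that of the enzymes was -0.14, so that the enzymes lay 0.21 above all genes there and 0.28 above them in scaled TPM.

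Calls needed a limma adjusted p under 0.05 and a fold change over 1.5. By this rule 0 of the 33 genes were called, and 0.0% of all 11595 genes tested were. At an unadjusted p under 0.05, 8 of the 33 genes were higher and 0 lower in DOX, against 8.12% of all genes higher and 7.75% lower. The 8 genes were SLC2A1, GPI, PFKP, ALDOA, TPI1, GAPDH, PGAM1 and PKM, and none of them had a fold change over 1.5. The count of 8 depended on single samples, and it was 1 without DOX replicate 1, 1 without vehicle replicate 2 and 1 without vehicle replicate 3, and 10 without vehicle replicate 1. It also depended on the scaling. With TPM as deposited 0 genes were higher and 7 lower (HIF1A, EPAS1, ARNT, VEGFA, BNIP3L, NDRG1 and KDM3A), against 0.206% of all genes higher and 29.2% lower on that scale. After a correction for GC content and length 4 genes were higher (GPI, PFKP, PGK1 and PKM) and 0 lower, against 7.67% and 5.73% of all genes.

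Replicate numbers 1 to 3 occur in both groups, and what a number stands for is not given. Deviations from the group mean correlated over genes at 0.56, 0.26 and 0.19 for samples of the same number. For samples of unlike number the values ran from -0.43 to 0.22. The highest of these, vehicle replicate 2 with DOX replicate 3, was above the pair numbered 3. After the GC and length correction the same-number values were 0.14, -0.0016 and 0.15. With the replicate number as a block, limma again called 0 of the 33 genes and 0.0% of all genes. Its unadjusted p was under 0.05 for 11 genes higher and 1 gene lower, HIF1A, against 15.4% of all genes higher and 13.9% lower. voom on the recovered reads, with the same block and no GC correction, gave an adjusted p under 0.05 for 8 genes higher and 1 lower. The shares of all genes were 5.35% higher and 8.63% lower. The 8 genes were SLC16A3, PFKP, ALDOA, TPI1, GAPDH, PGAM1, ENO1 and PKM, and the 1 lower was HIF1A, all with folds under 1.5. In limma with the block, the lowest adjusted p of the 33 genes was 0.058 (SLC16A3 and PFKP). With the GC and length correction added it was 0.269 (PFKP and PGK1). The samples of DOX lay wholly above those of vehicle for 8 genes (SLC2A1, GPI, PFKP, ALDOA, GAPDH, PGK1, PGAM1 and PKM) and wholly below for 1 (HIF1A), where 10.9% of all genes tested lay above and 9.15% below. On the TPM scale as deposited the samples of DOX lay above for 0 genes and below for 11, HIF1A among them, where 0.223% of all genes lay above and 30.7% below. With TPM as deposited, limma called 0 of the 33 genes lower against 2.98% of all genes.

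**Figure D2:**
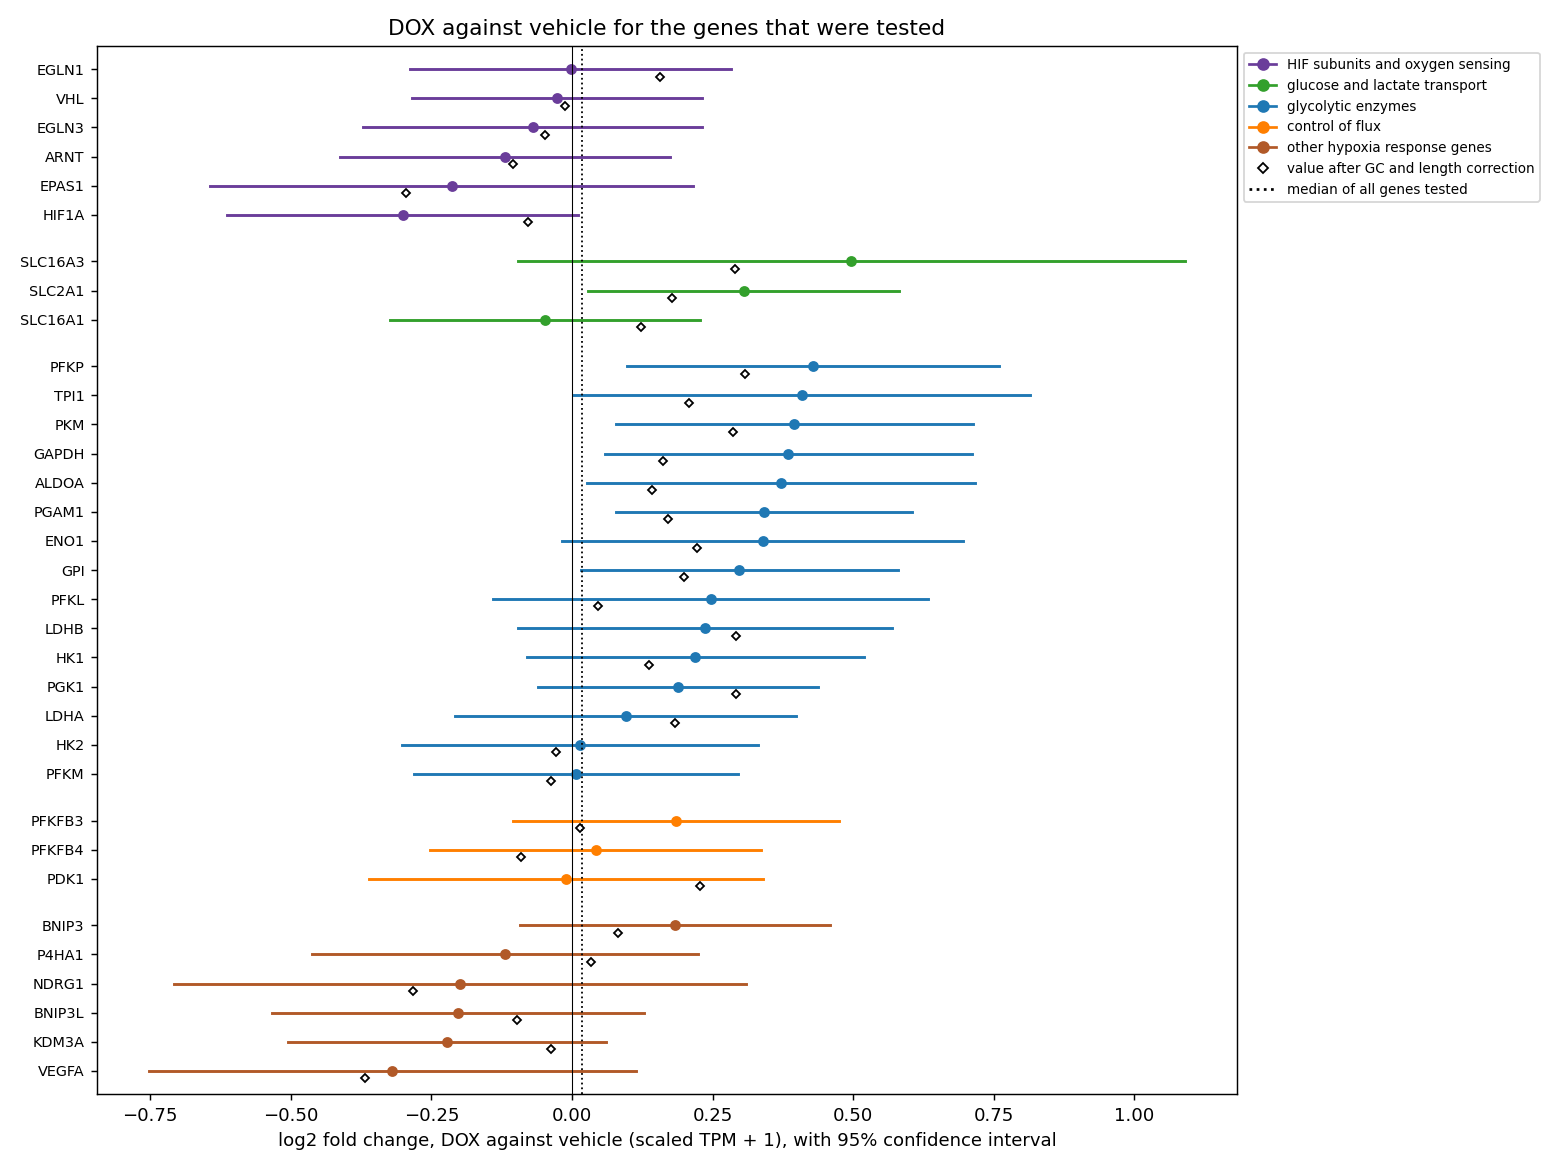
Log2 fold change of DOX against vehicle on the log2(scaled TPM + 1) scale for the 33 genes tested, with 95% confidence intervals from limma, colored by role. Open diamonds give the value after correction for GC content and length. All 15 glycolytic enzymes lie above 0 in scaled TPM, with HK2 and PFKM below 0 after the correction, and all 15 lie below 0 on the TPM scale as deposited, which is not plotted.

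In the upper part of glycolysis, glucose is trapped, rearranged and split. Hexokinase adds the first phosphate, and HK1 carried most of it here, at 10.9 ± 1.51 scaled TPM in vehicle and 12.8 ± 0.986 in DOX (SD, n = 3 each, as for all values below) with a log2 fold change of 0.22 (SE 0.13, limma adjusted p = 0.411). HK2, the isoform often induced in tumors, was low at 1.26 ± 0.193 and 1.29 ± 0.282 (log2 fold change 0.014). The isomerase gene GPI was at 92.1, 83.2 and 93.4 scaled TPM in vehicle replicates 1, 2 and 3 and at 123.9, 102.7 and 105.1 in DOX replicates 1, 2 and 3. The 3 DOX values lay above the 3 vehicle values, with a log2 fold change of 0.30 (SE 0.13, limma adjusted p = 0.298).

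Phosphofructokinase commits the sugar to glycolysis, and its platelet-type subunit gene PFKP had the largest log2 fold change of the enzymes. PFKP was at 34.9, 30.6 and 28.1 in vehicle and at 49.7, 42.1 and 35.8 scaled TPM in DOX. The groups did not overlap, although the lowest DOX sample exceeded the highest vehicle sample only narrowly, and the log2 fold change was 0.43 (SE 0.15, limma adjusted p = 0.281, fold 1.35). PFKL, the liver-type subunit, was at 7.02, 5.13 and 5.52 in vehicle and 9.27, 6.33 and 6.12 in DOX, and the groups overlapped. PFKM, the muscle-type subunit, was at 6.52, 5.72 and 5.57 in vehicle and 6.71, 5.66 and 5.56 in DOX, nearly the same levels, with a log2 fold change of 0.0069 (95% interval -0.28 to 0.29).

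Aldolase splits the 6-carbon sugar, and ALDOA was at 240.9, 200.3 and 234 scaled TPM in vehicle and at 355, 259 and 267 in DOX. The DOX samples again lay above the vehicle samples, DOX replicate 1 most, with a log2 fold change of 0.37 (SE 0.16, limma adjusted p = 0.296). ALDOC was at 0.912, 0.515 and 0.904 in vehicle and at 0.602, 0.555 and 0.383 in DOX, on 10 to 84 reads per sample, and the groups overlapped (exact permutation test, two-sided p = 0.3).

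In the lower part, which yields ATP and NADH, log2 fold changes ran from 0.19 (PGK1) to 0.41 (TPI1) as far as pyruvate. TPI1, the triose-phosphate isomerase gene, was at 124, 104 and 80.4 in vehicle and 160.4, 133 and 114 scaled TPM in DOX. Each DOX sample lay above the vehicle sample of its number, but the groups overlapped, and the log2 fold change was 0.41 (SE 0.18, limma adjusted p = 0.312). GAPDH was at 1019.6, 863 and 821 in vehicle and 1306, 1116 and 1105 in DOX, without overlap and with a log2 fold change of 0.38 (SE 0.15, limma adjusted p = 0.281). GAPDH is often used as a reference gene, and its fold of DOX over vehicle was 1.31 (95% interval 1.04 to 1.64) in scaled TPM, with a log2 fold change of -0.062 on the TPM scale as deposited.

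PGK1, an X-linked gene whose enzyme makes the first ATP of the pathway, was at 56.0, 53.7 and 52.7 in vehicle and 64.7, 60.5 and 60.2 scaled TPM in DOX. The spread was narrow and the groups did not overlap, with a log2 fold change of 0.19 (SE 0.11, limma adjusted p = 0.399). PGAM1, the phosphoglycerate mutase gene, was at 103.7, 95.7 and 90.3 in vehicle and 129, 118.7 and 119.8 in DOX, again without overlap, with a log2 fold change of 0.34 (SE 0.12, limma adjusted p = 0.281). ENO1 was at 196, 153 and 150.0 in vehicle and 251, 188 and 193 in DOX, where DOX replicates 2 and 3 lay below vehicle replicate 1 (log2 fold change 0.34, SE 0.16, limma adjusted p = 0.324). PKM, whose enzyme releases pyruvate and the second ATP, was at 321, 259 and 287 in vehicle and 435, 357 and 351 in DOX. The DOX samples lay above those of vehicle, and the log2 fold change was 0.40 (SE 0.14, limma adjusted p = 0.281). Several of these genes have near-identical processed pseudogenes, and how the authors' counting split such reads is not given in the sources used here, so levels of GAPDH, PGK1, PGAM1, TPI1, ENO1, PKM and LDHA are uncertain to that extent.

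Lactate dehydrogenase closes the pathway. LDHA, which favors lactate, was at 255 ± 12.9 in vehicle and 274 ± 35.0 in DOX (log2 fold change 0.095, SE 0.14, limma adjusted p = 0.728). LDHB, which favors the reverse reaction, was at 85.0 ± 15.3 and 99.2 ± 5.74 (log2 fold change 0.24, SE 0.15, limma adjusted p = 0.426). Both overlapped between the groups.

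Transport brings glucose in and lactate out. SLC2A1, which encodes the glucose transporter GLUT1, was at 26.5, 25.2 and 24.1 in vehicle and 34.5, 28.0 and 32.1 scaled TPM in DOX. The DOX samples lay above the vehicle samples, with a log2 fold change of 0.30 (SE 0.12, limma adjusted p = 0.290). SLC2A3, which encodes GLUT3, was at 0.127, 0.0639 and 0.169 in vehicle and 0.0856, 0.0658 and 0.0306 in DOX, on only 3 to 32 reads (exact permutation test, two-sided p = 0.3).

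SLC16A3, which encodes the lactate exporter MCT4, had a log2 fold change of 0.50 (SE 0.27, limma adjusted p = 0.365), the largest of the 33 genes in scaled TPM. It was 0.27 without DOX replicate 1, below PFKP at 0.31, and 0.78 without vehicle replicate 1, and it was 0.29 after the GC and length correction, where PFKP, PGK1 and LDHB were higher. Its level was 12.9, 7.23 and 6.34 in vehicle and 17.1, 12.3 and 8.82 in DOX. Replicate 1 was highest and replicate 3 lowest in both groups, so that the groups overlapped while each DOX sample exceeded the vehicle sample of its number. With the replicate number as a block its limma adjusted p was 0.058, and 0.022 in the blocked voom fit. With that block and the GC and length correction, the limma adjusted p was 0.304. SLC16A1, which encodes MCT1, was at 16.5 ± 0.421 in vehicle and 16.0 ± 1.75 in DOX (log2 fold change -0.049). BSG, the chaperone that brings both lactate transporters to the membrane, is not among the 38 genes and is given with the wider lists below.

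The genes that set the flux overlapped between the groups. PFKFB3, which makes the activator fructose-2,6-bisphosphate, was at 5.78 ± 0.440 in vehicle and 6.72 ± 0.740 in DOX (log2 fold change 0.19). Its paralog PFKFB4 was at 1.95 ± 0.223 and 2.04 ± 0.257 (log2 fold change 0.042). PDK1, a kinase that inhibits pyruvate dehydrogenase, was at 2.80 ± 0.367 and 2.80 ± 0.679 (log2 fold change -0.010, 95% interval -0.36 to 0.34).

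Among the HIF subunits, HIF1A was the gene whose DOX samples all lay below vehicle. It was at 149.6, 172 and 164 scaled TPM in vehicle and 111, 148 and 136 in DOX. The 3 DOX values were all lower than the 3 vehicle values, DOX replicate 1 farthest and DOX replicate 2 narrowly. The log2 fold change of HIF1A was -0.30 (SE 0.14, limma adjusted p = 0.319). Its adjusted p was 0.099 in limma with the replicate block and 0.041 in the blocked voom fit. With the block and the GC and length correction, the log2 fold change was -0.078 (limma adjusted p = 0.698). EPAS1, which encodes HIF-2 alpha, was at 48.8, 47.1 and 54.7 in vehicle and 51.6, 30.5 and 50.6 in DOX, where only replicate 2 stood low (log2 fold change -0.21, limma adjusted p = 0.567). Without DOX replicate 2 the value for EPAS1 was 0.033. ARNT was at 26.4 ± 1.67 and 24.3 ± 3.11 (log2 fold change -0.12). The oxygen sensors EGLN1 (-0.0026) and EGLN3 (-0.070) and the ligase subunit VHL (-0.027) had log2 fold changes within 0.1 of 0, with EGLN1 at 20.2 ± 2.16 in vehicle and 20.1 ± 1.57 in DOX.

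Of the 6 other hypoxia response genes tested, 5 had log2 fold changes below 0 and BNIP3 one above it. VEGFA, the angiogenic growth factor, was at 49.7, 50.8 and 44.2 in vehicle and 44.9, 27.0 and 46.6 in DOX. DOX replicate 2 was again low and the groups overlapped, with a log2 fold change of -0.32 (SE 0.19, limma adjusted p = 0.409). NDRG1, a stress-responsive gene, shared the low DOX replicate 2, with 27.3, 22.9 and 24.1 in vehicle and 30.5, 14.1 and 22.4 in DOX. Its log2 fold change was -0.20 (SE 0.23), and 0.086 without that sample. The mitophagy receptor gene BNIP3 was at 46.2 ± 2.04 and 52.7 ± 5.54 (log2 fold change 0.18), and its paralog BNIP3L was at 102 ± 11.9 and 88.5 ± 13.5 (-0.20). KDM3A, a histone demethylase gene, was at 12.1, 13.5 and 15.1 in vehicle and at 11.0, 12.2 and 11.1 in DOX (-0.22). P4HA1, a collagen prolyl hydroxylase gene, was at 16.5 ± 0.992 and 15.3 ± 3.32 (-0.12). None of these 6 genes had an adjusted p under 0.05 in limma, with or without the replicate block, on the TPM scale as deposited or in the blocked voom fit. ADM was at 0.648 ± 0.0765 and 0.767 ± 0.246, and ANKRD37 at 1.08 ± 0.473 and 0.721 ± 0.435 (exact permutation tests, two-sided p = 0.6 and 0.5).

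Within a sample, the share of 1 gene in the summed TPM of its family does not depend on the scaling, and 11 such shares were compared. Differences in base composition between family members, described below, do not cancel in such a share. With 3 samples against 3 the exact permutation test cannot give a p under 0.1. PFKP made up 72.1%, 73.8% and 71.7% of the phosphofructokinase TPM in vehicle and 75.7%, 77.9% and 75.4% in DOX. The groups did not overlap, and the difference was 3.79 percentage points (exact permutation p = 0.1, adjusted p = 0.275 over the 11 shares). PFKM took 13.4%, 13.8% and 14.2% in vehicle and 10.2%, 10.5% and 11.7% in DOX, again without overlap (-3.03 points, exact permutation p = 0.1, adjusted p = 0.275). The muscle-type subunit thus held a smaller part of the phosphofructokinase transcripts in each DOX sample, although its own scaled TPM was nearly equal in both groups.

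Shares of the minor transcripts ALDOC and SLC2A3 were also lower in every DOX sample. ALDOC was 0.340% ± 0.0720 of aldolase TPM in vehicle and 0.176% ± 0.0356 in DOX, and SLC2A3 was 0.476% ± 0.221 and 0.192% ± 0.0846 of the glucose transporter pair (exact permutation p = 0.1 and adjusted p = 0.275 for each). These shares are under 1%, and SLC2A3 rests on very few reads. SLC16A3 held 34.1% ± 9.12 of the lactate transporter pair in vehicle and 43.7% ± 10.7 in DOX, higher in 3 of 3 same-numbered pairs, and BNIP3L held 68.6% ± 3.23 and 62.6% ± 2.73 of the BNIP3 pair, lower in 3 of 3 pairs. HK2 held 10.5% ± 2.43 and 9.18% ± 1.88 of the hexokinase pair, also lower in 3 of 3 pairs. These 3 shares overlapped between the groups (exact permutation p = 0.3, 0.2 and 0.5). The shares of EPAS1, EGLN3, PFKFB4 and LDHB overlapped as well, with exact permutation p between 0.3 and 0.8. GC content was 65.1% for SLC16A3 and 41.7% for SLC16A1, and 51.4% for BNIP3 and 42.5% for BNIP3L. After the GC and length correction their log2 fold changes were 0.29 and 0.12, and 0.082 and -0.097. PFKM, PFKP and PFKL had GC contents of 51.5%, 56.4% and 64.0%, and values of -0.038, 0.31 and 0.047 after the correction. SLC2A3 had 46.6% GC against 55.9% for SLC2A1, and ALDOC 55.5% against 59.5% for ALDOA. SLC2A3 and ALDOC have no corrected value, since they were not tested. The part of base composition in the shares was not tested beyond this correction.

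**Figure D3:**
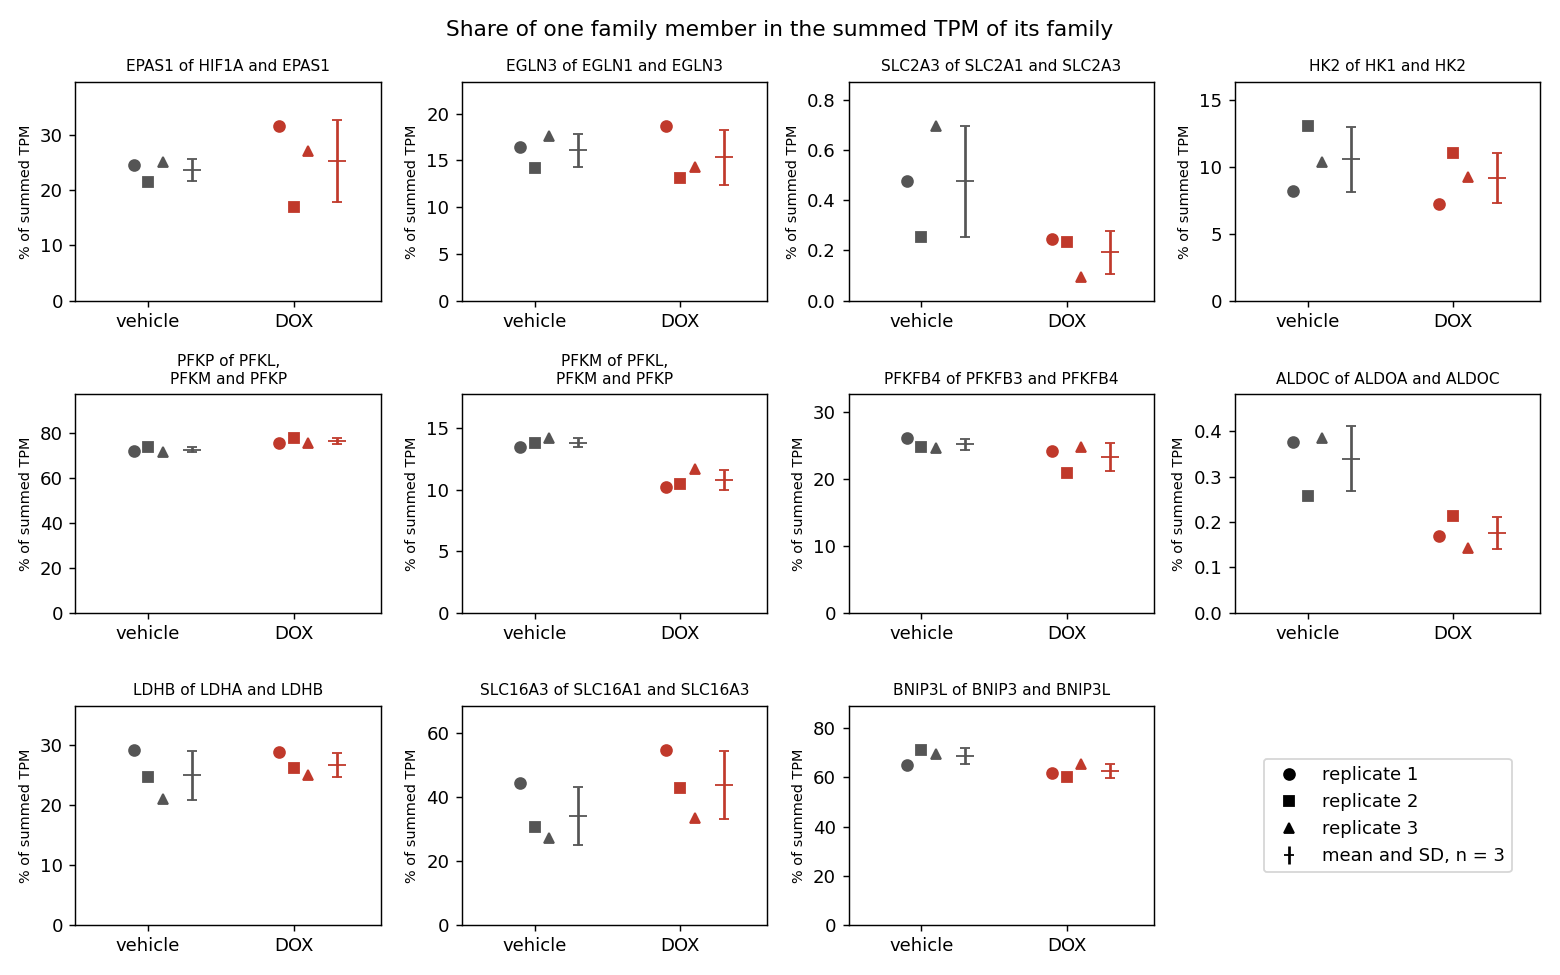
Share (%) of 1 gene in the summed TPM of its family, per sample, for 11 families or family members. Symbols mark the replicate number and bars the mean and SD of 3 samples. PFKP and PFKM of the phosphofructokinases, ALDOC and SLC2A3 are the 4 shares whose groups do not overlap.

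The base composition of the transcripts moved with the comparison as a whole. When the tested genes were split into 10 equal bins by GC content (GENCODE release 44), the median log2 fold change went from -0.27 in the bin of lowest GC to 0.27 in the bin of highest GC. The glycolytic enzymes had a median GC content of 53.8% against 48.0% for all genes, and the other hypoxia response genes 47.3%. HIF1A, at 38.9% GC, lay in the lowest bin, and its log2 fold change of -0.30 was close to that bin's median. PFKP, GAPDH, PKM, TPI1, GPI and SLC2A1 lay in a bin with a median of 0.18. DOX replicate 1, the deepest library, had the highest level of GC-rich relative to GC-poor genes (0.71 on the log2 scale from the mean of the samples), and it also had the highest level of the glycolytic enzymes relative to all genes (0.32).

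Part of the difference of the enzymes from all genes was left within bins of equal GC content. Of the 15 enzymes, 12 lay above the median of their own bin and 3 below, and the median difference over the 15 was 0.21. PGK1 (43.6% GC), LDHB (43.6%) and LDHA (44.7%) had values of 0.19, 0.24 and 0.095, although the median of their bin was -0.065. PFKL, HK2 and PFKM lay below the medians of their bins. VEGFA (54.3% GC), NDRG1 (55.7%) and EPAS1 (53.6%) lay below bins whose medians were 0.18, 0.18 and 0.11. After a spline correction for GC content and length in each sample, the median of the enzymes was 0.18 against 0.022 for all genes, 13 of 15 enzymes were above 0, and HIF1A was at -0.078. The part of base composition in these differences was not tested beyond this correction.

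**Figure D4:**
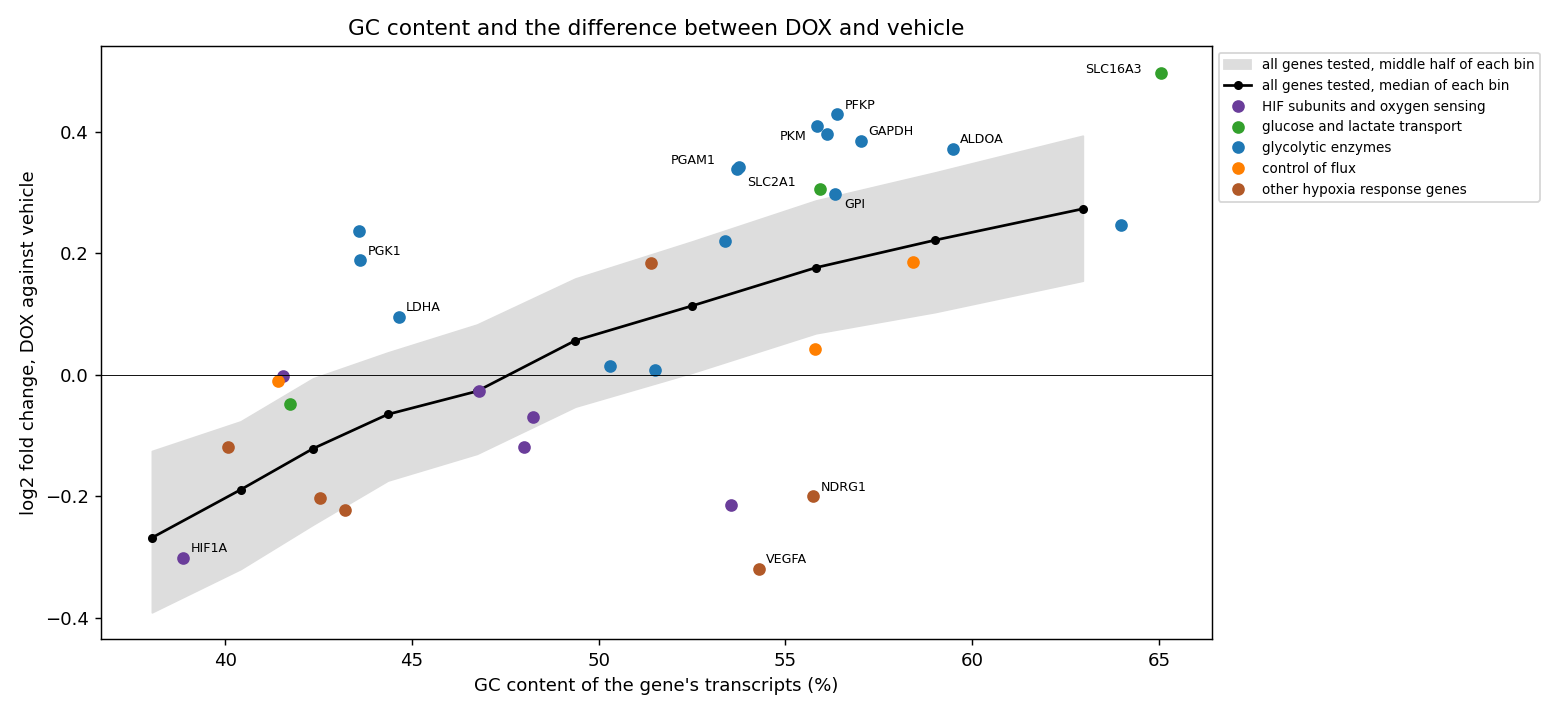
Log2 fold change of DOX against vehicle (scaled TPM + 1) against the GC content (%) of each gene's transcripts, with the median (line) and middle 50% (gray) of all tested genes in 10 bins of GC content. The line goes from -0.27 to 0.27. Most glycolytic enzymes (blue) lie above it, HIF1A lies near it, and VEGFA and NDRG1 lie below it. On the TPM scale as deposited all 15 enzymes have values below 0.

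The distance of the enzymes from all genes was present under every setting tried. Their median lay between 0.16 (GC and length correction) and 0.35 (without vehicle replicate 1) above that of all genes, and 13 to 15 of the 14 to 16 enzymes tested lay above the median of all genes. The median of the other hypoxia response genes lay below that of all genes under each of these settings, with differences of -0.22 in scaled TPM and -0.090 after the GC and length correction. No test was run on these medians, since the genes were chosen with earlier results of the data known.

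**Figure D5:**
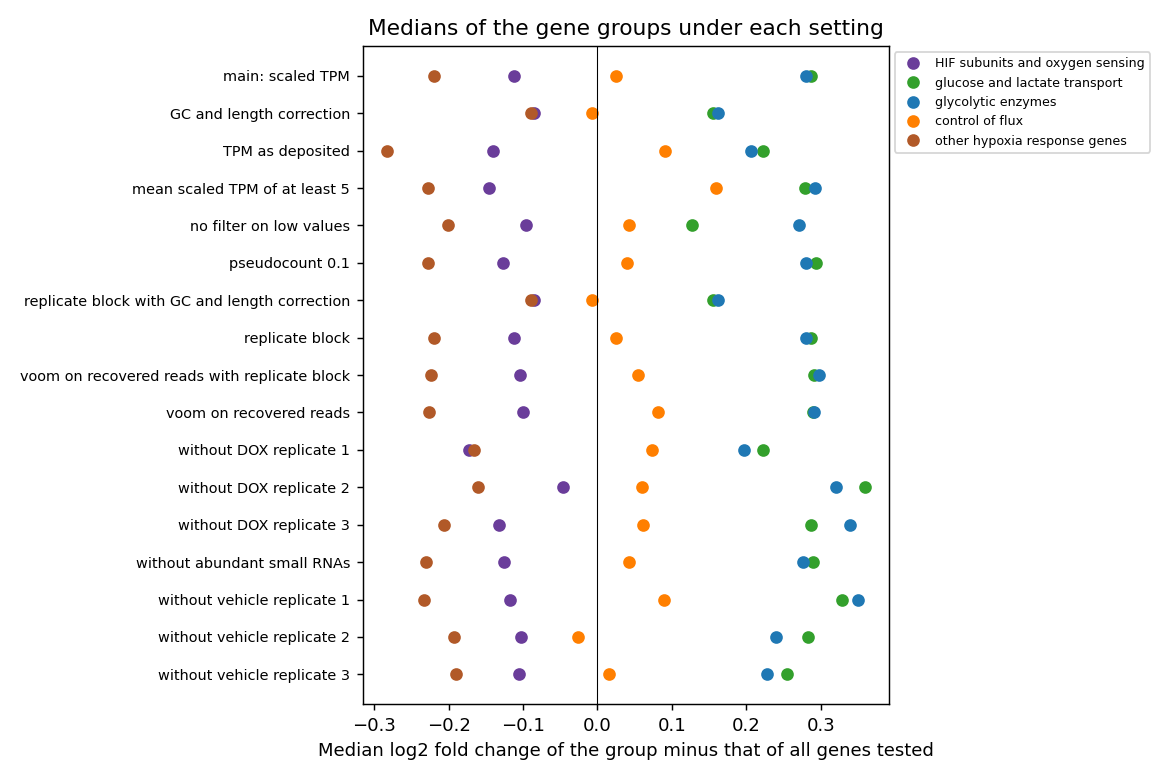
Median log2 fold change of each gene group minus the median of all genes tested, under 17 settings of the processing (1 row each). Glycolytic enzymes (blue) lie between 0.16 and 0.35 above all genes, and other hypoxia response genes (brown) lie below them in each row. The median of all genes is itself -0.35 with TPM as deposited.

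Further genes of both pathways were examined from wider lists. Of 45 other genes of glycolysis, gluconeogenesis and pyruvate entry, 27 were tested, 13 above and 14 below 0, with a median log2 fold change of -0.0084. limma gave an unadjusted p under 0.05 for 1 higher, BSG, and 1 lower, PDK3, and an adjusted p under 0.05 for none, beside the 8.12% and 7.75% of all genes at that unadjusted p. voom with the replicate block gave an adjusted p under 0.05 for 2 higher (BSG and the glucose transporter gene SLC2A6) and 1 lower (PDK3), beside 5.35% and 8.63% of all genes. BSG was at 59.1, 44.6 and 40.9 scaled TPM in vehicle and 84.0, 63.3 and 61.2 in DOX (log2 fold change 0.52, SE 0.17, limma adjusted p = 0.281). PDK3, a second pyruvate dehydrogenase kinase gene, was at 5.05, 5.93 and 6.24 in vehicle and 3.45, 4.03 and 4.61 in DOX (-0.42, SE 0.14, limma adjusted p = 0.281). Neither gene overlapped between the groups. In this list the samples of DOX lay wholly above vehicle for 4 genes and wholly below for 1, beside 10.9% and 9.15% of all genes.

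Of 50 other hypoxia genes, 40 were tested, 17 above and 23 below 0, with a median of -0.055. The unadjusted limma p was under 0.05 for 2 higher and 2 lower, beside 8.12% and 7.75% of all genes, and the adjusted p for none. voom with the replicate block gave an adjusted p under 0.05 for 2 higher (ELOB and GYS1) and 3 lower (PLOD2, PPP1R3B and the kinase gene RIOK3). The shares of all genes at that adjusted p were 5.35% higher and 8.63% lower. Samples of DOX lay wholly above vehicle for 3 genes of the list and wholly below for 3, beside 10.9% and 9.15% of all genes. ELOB, a subunit of the VHL ligase complex, had a log2 fold change of 0.55 (SE 0.13, limma adjusted p = 0.268) and the glycogen synthase gene GYS1 one of 0.37 (SE 0.15). The collagen lysyl hydroxylase gene PLOD2 was at 243, 297 and 289 in vehicle and 173, 218 and 215 in DOX, without overlap (-0.45, SE 0.14, limma adjusted p = 0.280), and PPP1R3B, a glycogen-targeting phosphatase subunit gene, had -0.38 (SE 0.15). These 8 genes of the wider lists were named after their values were seen, and the values given for them are not corrected for GC content or length. The wider lists thus held genes on both sides of 0, with medians near that of all genes.

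HIF binds the core letters ACGTG or GCGTG, and the promoters of the genes were searched for both on either strand, where they read CACGT and CACGC in reverse. Promoters were the RefSeq windows of 300 bases (assembly GRCh38.p14), 250 before to 50 after a start site, and 32 of 38 genes matched an entry, with 60 windows. At least 1 match stood in 40 of the 60 windows (66.7%), in 22 of 36 windows of the glycolytic enzymes (61.1%) and in 7 of 7 of the other hypoxia response genes, against 61.6% of the 12785 windows of tested genes and 48.5% of all 35116 windows. Counted by window, the enzymes thus held the letters about as often as tested genes in general. Genes with several, partly overlapping windows, such as HK1 and PFKM, weigh more in that count. The 7 windows of other hypoxia response genes belong to CA9, BNIP3, ADM, ANKRD37, P4HA1 and KDM3A, and the KDM3A windows overlap. VEGFA, NDRG1 and BNIP3L had no window, and CA9, ADM and ANKRD37 were not tested for DOX against vehicle. Every enzyme gene but PGAM1 had a match in at least 1 of its windows, and the share by gene was not computed for all tested genes. A match is a run of letters and not a known binding site.

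The windows below show enzymes with several matches (PGK1, LDHA), fewer (ENO1) and none (PGAM1), beside BNIP3, which had 5, and capitals mark the matches, with overlapping matches such as CACGTG merged. PGK1 lies on the plus strand at chrX:78103998-78104297, LDHA on the plus strand at chr11:18394313-18394612, ENO1 on the minus strand at chr1:8878637-8878936, BNIP3 on the minus strand at chr10:131981874-131982173 and PGAM1 on the plus strand at chr10:97427568-97427867.
PGK1: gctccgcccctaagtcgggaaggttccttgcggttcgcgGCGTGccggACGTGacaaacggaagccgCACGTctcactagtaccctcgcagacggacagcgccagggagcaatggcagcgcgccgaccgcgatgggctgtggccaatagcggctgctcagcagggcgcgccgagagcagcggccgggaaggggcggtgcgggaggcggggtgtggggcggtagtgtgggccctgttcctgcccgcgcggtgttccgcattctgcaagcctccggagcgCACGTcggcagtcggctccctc
LDHA: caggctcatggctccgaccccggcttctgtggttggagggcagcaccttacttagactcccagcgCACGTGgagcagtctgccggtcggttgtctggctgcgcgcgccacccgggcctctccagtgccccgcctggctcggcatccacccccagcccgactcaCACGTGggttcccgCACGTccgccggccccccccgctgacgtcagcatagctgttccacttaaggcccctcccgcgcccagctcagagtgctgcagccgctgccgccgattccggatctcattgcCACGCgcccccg
ENO1: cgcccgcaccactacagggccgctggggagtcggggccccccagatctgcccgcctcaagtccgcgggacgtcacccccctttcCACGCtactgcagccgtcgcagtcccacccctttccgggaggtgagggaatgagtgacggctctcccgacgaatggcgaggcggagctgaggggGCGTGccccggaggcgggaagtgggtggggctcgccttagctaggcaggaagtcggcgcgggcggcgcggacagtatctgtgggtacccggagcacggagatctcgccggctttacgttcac
BNIP3: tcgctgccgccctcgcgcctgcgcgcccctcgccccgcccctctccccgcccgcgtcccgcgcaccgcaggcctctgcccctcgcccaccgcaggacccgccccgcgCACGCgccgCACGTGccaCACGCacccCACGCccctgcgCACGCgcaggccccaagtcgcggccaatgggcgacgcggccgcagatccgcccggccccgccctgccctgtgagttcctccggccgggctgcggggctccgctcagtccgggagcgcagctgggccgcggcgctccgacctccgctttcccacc
PGAM1: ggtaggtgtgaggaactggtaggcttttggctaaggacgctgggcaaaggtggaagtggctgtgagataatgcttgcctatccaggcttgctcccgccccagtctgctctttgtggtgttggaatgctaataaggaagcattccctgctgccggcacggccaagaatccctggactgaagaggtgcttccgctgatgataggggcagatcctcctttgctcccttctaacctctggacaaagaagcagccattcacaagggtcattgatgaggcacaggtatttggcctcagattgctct

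In the windows shown, PGK1 and LDHA, with 4 matches each, had log2 fold changes of 0.19 and 0.095, and ENO1, with 2, had 0.34. A further LDHA window, not shown, had 1 match. PGAM1, with no match in its window, which does not cover the gene's annotated start, had 0.34, and BNIP3, with 5, had 0.18. These 5 genes were picked to show different numbers of matches, and a relation between matches and the difference of DOX from vehicle was not tested.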

How the data were processed

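RNA-seq of 3 vehicle and 3 DOX samples was used, and groups and replicate numbers were taken from the sample labels. The 38 genes and the wider lists were chosen with earlier results of these data known. Values in every sample are given for genes with an unadjusted p under 0.05, for genes whose groups do not overlap and for those the shares turn on.

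The authors prepared stranded mRNA libraries, aligned reads with STAR to GRCh38 (written GRCh38.74 in the study's methods) and deposited TPM per gene symbol. The counting tool, its strand setting and the tool versions are not given in the sources used here. The labels name a column kit and the study's methods Trizol for the RNA. The authors also deposited DESeq2 output, of which only the pooled mean of normalized counts, a signal over the 6 samples, was used. Its fold changes, standard errors, statistics and p-values are the authors' own comparison and were not used.

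TPM was divided by a median-of-ratios factor per sample (0.694 to 1.41), the kind of scaling the authors' DESeq2 run applied to counts. Genes with a mean scaled TPM of at least 1 were tested on log2(scaled TPM + 1) with limma (version 3.58.1, R 4.3.3), using eBayes with a trend and no block, with Benjamini-Hochberg adjustment over all 11595 genes. Fold changes on this scale understate those of low genes. Reads were recovered from TPM and the pooled mean, and 99.4% of 16815 low values came within 0.05 of a whole number, against 10% by chance. Whole reads served for depth and the voom fits, and intervals cover the spread between triplicate cultures, which may be technical. Identical sample columns numbered 0.

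Deviations of same-numbered vehicle and DOX samples correlated over genes at 0.56, 0.26 and 0.19, and those of unlike number at -0.43 to 0.22. The labels leave the meaning of the number open. After GC and length correction the values were 0.14, -0.0016 and 0.15 for the same number and -0.26 to 0.12 for unlike numbers. GC content was found for 97.6% of the genes tested. A further marker list is not reported here. Steps were tested on simulated data. Alternatives were the scaling, pseudocount, filter, replicate block, GC and length correction, voom on recovered reads and each sample left out. Python 3.11.15, pandas 2.3.3, SciPy 1.17.1 and matplotlib 3.10.9 were used.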

Additional observations from a re-analysis of the deposited data

How the results depend on the processing

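The sign of a log2 fold change depended mostly on the scaling. With TPM as deposited, 19 of 33 genes reversed, with values of -0.13 for SLC2A1, -0.19 for HK1, -0.23 for HK2, -0.15 for GPI, -0.14 for PFKL, -0.38 for PFKM, -0.0064 for PFKP, -0.074 for ALDOA, -0.034 for TPI1, -0.062 for GAPDH, -0.25 for PGK1, -0.10 for PGAM1, -0.11 for ENO1, -0.051 for PKM, -0.35 for LDHA, -0.21 for LDHB, -0.20 for PFKFB3, -0.26 for PFKFB4 and -0.25 for BNIP3, as did GYS1 (-0.049) and ADM (-0.10). Its medians were -0.49 for HIF and oxygen sensing, -0.13 for transport, -0.14 for the enzymes, -0.26 for control of flux, -0.63 for other hypoxia response genes, -0.40 for the wider glycolysis list, -0.43 for the wider hypoxia list and -0.25 for all members, and it called 348 genes lower and 3 higher. The share of the small RNAs was 67.5% to 76.0% of TPM in vehicle and 76.0% to 82.6% in DOX.

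The median of the members was 0.19 with a mean of at least 5, 0.028 with no filter and 0.0060 without the small RNAs. The GC and length correction, with or without the replicate block, reversed 7 genes, with values of 0.16 for EGLN1, 0.12 for SLC16A1, -0.028 for HK2, -0.038 for PFKM, -0.091 for PFKFB4, 0.23 for PDK1 and 0.033 for P4HA1. It moved the medians to 0.18 for transport, -0.067 for other hypoxia response genes and -0.0021 for the wider hypoxia list, and the EPAS1 share to -3.08 points. HK2 was at -0.061 under voom. Without the small RNAs HK2 was at -0.056, PFKM at -0.079 and PFKFB4 at -0.024. All-gene calls were 1 lower with a mean of at least 5, 1 lower under voom, and 270 lower and 158 higher under voom with the replicate block, where 0 of the 33 genes were called. The replicate block changed no other call.

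Leaving out 1 sample gave 0 to 13 genes called higher and 0 to 1 lower. Log2 fold changes that changed sign ranged from -0.060 to 0.081 for EGLN1, -0.17 to 0.016 for EGLN3, -0.35 to 0.033 for EPAS1, -0.081 to 0.085 for HK2, -0.45 to 0.086 for NDRG1, -0.15 to 0.086 for PDK1, -0.029 to 0.10 for PFKFB4, -0.071 to 0.066 for PFKM, -0.11 to 0.031 for SLC16A1, -0.070 to 0.0032 for VHL and -0.016 to 0.17 for ADM. Medians ranged from -0.16 to -0.015 for HIF and oxygen sensing, -0.020 to 0.094 for the wider glycolysis list and -0.091 to 0.019 for the wider hypoxia list. Shares ranged from -2.38 to 0.42 points for EGLN3, -1.62 to 5.68 for EPAS1 and -0.21 to 3.90 for LDHB. The cause was not tested. SLC2A3, ALDOC, CA9, ADM and ANKRD37 had few reads in every sample, from 0 to 2 for CA9 up to 7 to 139 for ADM.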
